A study of Mus musculus with 12 samples.

Results

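The data analysed here are the difference of differences between genotypes, (KPG1_PPARaDN minus KPG1) minus (KP_PPARaDN minus KP), which asks whether a gene responds to a block of PPARα in a different way when the tumor lacks Glut1. All 12 tumors of the series entered this comparison, 12 of 12, with 3 tumors in each of 4 groups. All mice were C57BL/6 animals with Cre-dependent tumor alleles, among them floxed *p53*, and the CCSP-rtTA transgene, and KPG1 and KPG1_PPARaDN mice also had floxed alleles of *Glut1* (gene *Slc2a1*). Every mouse received 6000 viral units of the lentivirus Lenti.TRE-PPARaD13_PGK-Cre, so that the controls carry the inducible PPARα construct too, and tumors were collected at 26 weeks. KP_PPARaDN and KPG1_PPARaDN mice were fed doxycycline at 625 mg/kg for 15 days before that, while KP and KPG1 mice had a regular diet, so that the diet and the induction of the construct cannot be told apart. In the CCSP-rtTA transgene, the activator that answers to doxycycline is driven by the promoter of a club cell secretory protein, which limits induction to cells where that promoter works. RNA came from the CD45-negative fraction, the cells left after removal of immune cells, and was read as polyA RNA.

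The 3 KP tumors came from 2 mice and the 3 KPG1_PPARaDN tumors from 2 mice, as did the 3 KPG1 tumors, while the 3 KP_PPARaDN tumors came from 3 mice. Replicates 1 and 2 shared a mouse in KP and in KPG1, and replicates 1 and 3 in KPG1_PPARaDN. Sex was not balanced. Females gave the 3 KP tumors and males the 3 KPG1 tumors, whereas KP_PPARaDN held tumors of 1 female and 2 males. KPG1_PPARaDN held 2 tumors of 1 female and 1 tumor of a male, so that sex and animal cannot be told apart in that group. The PPARα block therefore goes with a shift to males in KP and with a shift to females in KPG1. The difference of differences is thus in part confounded with sex, which was also fitted as a covariate. Since the controls of each genotype were of 1 sex, the sex term was estimated within the 2 PPARaDN groups alone. The fit with sex therefore rests largely on the 1 female of KP_PPARaDN and the 1 male of KPG1_PPARaDN against their controls. Total counts per tumor ranged from 25263794 to 32654223. Values below are CPM, counts scaled to the size of each library after TMM normalization, given for replicates 1, 2 and 3 in that order, and fold changes are on the log2 scale with the standard error (SE) of the fit.

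PPARα is a nuclear receptor that binds DNA together with RXR and is activated by fatty acids. It is best known in liver, heart and muscle for switching on genes of fatty acid uptake, peroxisomal and mitochondrial fatty acid breakdown and ketone body synthesis during fasting. A dominant negative form occupies the same partners or DNA without activating transcription. Glut1 is the transporter through which most tumor cells take up glucose, which glycolysis then turns into pyruvate and lactate.

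The targeted genes were read first. *Ppara*, whose count covers the resident gene and may take up reads of the construct, stood at 15.7, 10.5 and 9.54 CPM in KP, 2.71, 64.6 and 246 in KP_PPARaDN, 7.24, 10.5 and 15.3 in KPG1 and 8.90, 19.2 and 17.7 in KPG1_PPARaDN. In KP_PPARaDN, replicate 1 lay below all 3 KP tumors while replicates 2 and 3 lay above them, and KPG1_PPARaDN overlapped with KPG1, so that by this count the library labelled KP_PPARaDN replicate 1 and the 3 libraries labelled KPG1_PPARaDN do not stand out from their controls. "With the block" and "blocked" below therefore refer to the labels of the doxycycline-fed groups. Without KP_PPARaDN replicate 1, 1076 genes higher and 678 lower had an unadjusted p under 0.05 in the test described below, against 1136 and 816 with it, while leaving out the 3 KPG1_PPARaDN tumors would leave no comparison. *Slc2a1* (chr4:119108711-119137983, mm10) stood at 41.7, 35.3 and 57.7 CPM in KP, 153, 115 and 108 in KP_PPARaDN, 30.2, 64.0 and 39.9 in KPG1 and 23.7, 53.2 and 54.5 in KPG1_PPARaDN. KP and KPG1 overlapped, and a count over the whole gene does not read the floxed part, which is not given in the sources used here. *Epcam*, of epithelial cells, and *Nkx2-1*, of lung epithelium, were high in all 12 tumors, with at least 298 and 208 CPM. *Ptprc*, which encodes CD45, ranged from 1.88 to 31.5 CPM in KP and from 3.45 to 9.85 CPM in the other 9 tumors.

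No gene passed the test of the difference of differences. Of 16527 genes tested with edgeR's quasi-likelihood test, 0 had an adjusted p under 0.05 (0%), and the smallest adjusted p was 0.33. An unadjusted p under 0.05 was found for 1952 genes (11.8%), for 1136 of which (6.87%) the KPG1 difference exceeded the KP difference and for 816 (4.94%) the reverse held. DESeq2 gave 286 genes with an adjusted p under 0.05, 220 higher and 66 lower, and limma voom gave 0. Each arm had 1 gene with an adjusted p under 0.05 (0.00605% of the genes), *Anpep* in KP and *Hba-a2* in KPG1, and 1876 (11.4%) genes in KP and 1777 (10.8%) in KPG1 with an unadjusted p under 0.05. After summing the tumors that share a mouse, which gives 9 libraries, 877 genes higher and 593 lower had an unadjusted p under 0.05, and 1178 of the 1952 genes remained. The differences of differences named below are therefore descriptions of the tumors at hand, and none is a call by edgeR.

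Opposite signs of the 2 differences were found for 8799 genes (53.2%). A stricter description asks that all 3 tumors labelled PPARaDN lie on one side of the 3 controls in KP and on the other side in KPG1. This held for 163 genes (0.986%), of which 100 (0.605%) were lower in KP_PPARaDN than in KP and higher in KPG1_PPARaDN than in KPG1, and 63 (0.381%) the reverse. For comparison, 172 genes (1.04%) separated without overlap in the same direction in both genotypes. Of the 163 genes, 154 also had an unadjusted p under 0.05 (0.932% of the genes tested). The median size of the difference of differences was 1.44 on the log2 scale over the 100 genes and 1.28 over the 63, and both were chosen for that difference.

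**Figure D1:**
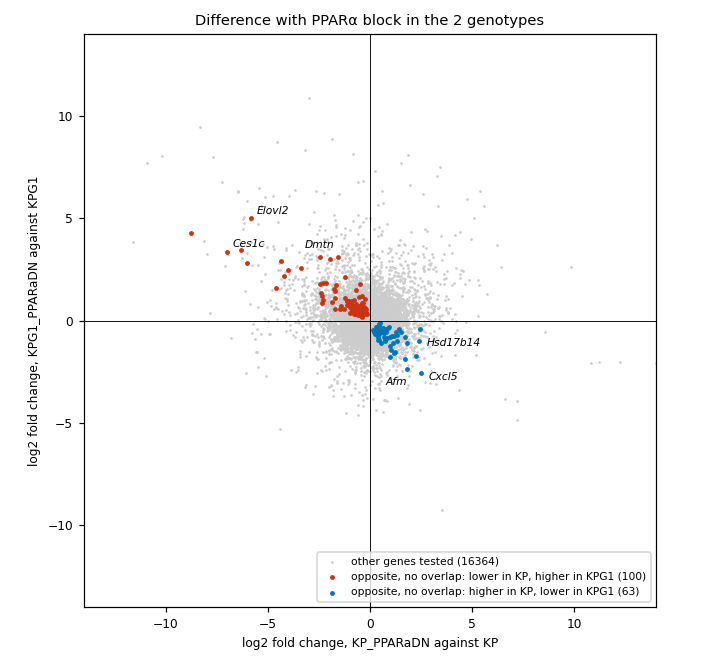
Each point is 1 of the 16527 genes tested, at its log2 fold change of KP_PPARaDN against KP (horizontal axis) and of KPG1_PPARaDN against KPG1 (vertical axis). Red points are the 100 genes and blue points the 63 genes whose tumors do not overlap and go in opposite directions in the 2 genotypes, so that they lie toward the upper left and the lower right.

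Among genes that were lower with the block in KP and higher with it in KPG1, those with at least 1 CPM and the largest differences are described first. *Elovl2* (chr13:41182381-41220405), the elongase of long polyunsaturated fatty acids, stood at 2.29, 90.2 and 4.04 CPM in KP, 0.103, 0.968 and 0.603 in KP_PPARaDN, 0.480, 0.688 and 0.694 in KPG1 and 44.7, 4.29 and 11.3 in KPG1_PPARaDN. All 3 KP_PPARaDN tumors were below all 3 KP tumors and all 3 KPG1_PPARaDN tumors above all 3 KPG1 tumors, and the highest of all 12 was KP replicate 2. The KP difference was -5.83 ± 1.5, the KPG1 difference 5.0 ± 1.45 and their difference 10.84 ± 2.08 (edgeR adjusted p = 0.33). *Ces1c* (chr8:93099015-93131283), a carboxylesterase that is secreted into mouse plasma, stood at 0.650, 114 and 2.82 CPM in KP, 0.480, 0.0646 and 0.368 in KP_PPARaDN, 0.720, 0.723 and 4.73 in KPG1 and 16.2, 42.6 and 5.51 in KPG1_PPARaDN, with a difference of differences of 10.37 ± 2.45. KP replicate 2 was again far above the other KP tumors. *Slc38a1* (chr15:96571418-96642913), a transporter of glutamine and other neutral amino acids, stood at 6.92, 79.4 and 39.6 CPM in KP, 4.08, 5.58 and 2.31 in KP_PPARaDN, 10, 12.1 and 0.661 in KPG1 and 14.6, 66.8 and 52.1 in KPG1_PPARaDN. Its KP difference was -3.39 ± 1.04 and its KPG1 difference 2.55 ± 1.00, and the spread within each control group was wider than in KP_PPARaDN.

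*Opn3*, which encodes the opsin encephalopsin, stood at 4.66, 18.8 and 6.02 CPM in KP, 2.57, 1.58 and 1.78 in KP_PPARaDN, 7.88, 2.55 and 7.93 in KPG1 and 23.8, 19.6 and 23.1 in KPG1_PPARaDN. Its 3 KPG1_PPARaDN tumors lay close together, and the difference of differences was 4.17 ± 0.79. *Dmtn*, the actin-bundling protein dematin of the red cell membrane skeleton, stood at 9.89, 8.79 and 13.6 CPM in KP, 0.891, 3.49 and 1.57 in KP_PPARaDN, 1.4, 2.24 and 2.28 in KPG1 and 42.0, 5.06 and 4.86 in KPG1_PPARaDN. Its 3 KP tumors lay close together, so that its KP difference of -2.43 ± 0.81 did not rest on replicate 2, while KPG1_PPARaDN replicate 1 was far above the other 2. *Vwa2*, a von Willebrand domain protein of basement membranes, stood at 0.685, 9.28 and 2.30 CPM in KP, 0.206, 0.452 and 0.10 in KP_PPARaDN, 0.280, 0.757 and 0.727 in KPG1 and 5.39, 1.86 and 2.77 in KPG1_PPARaDN. Its difference of differences was 6.48 ± 1.30. The remaining named genes of this direction were *Zswim5*, *Sectm1a*, *Fjx1* and *Izumo1*, with differences of 6.42 ± 1.23, 4.97 ± 1.05, 4.24 ± 1.01 and 4.01 ± 1.07. *Izumo1*, known for fusion of sperm and egg, did not exceed 8.94 CPM in any tumor.

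The next genes were higher with the block in KP and lower with it in KPG1. *Afm* (chr5:90518932-90553543), which encodes afamin, a vitamin E-binding relative of albumin, had the smallest unadjusted p of the 163 genes. It stood at 0.650, 1.91 and 2.19 CPM in KP, 6.31, 4.13 and 6.20 in KP_PPARaDN, 10.3, 10.9 and 7.53 in KPG1 and 1.09, 1.44 and 2.99 in KPG1_PPARaDN. Blocked and control tumors did not overlap in either genotype, the KP difference was 1.80 ± 0.51, the KPG1 difference -2.38 ± 0.51 and their difference -4.18 ± 0.72 (edgeR adjusted p = 0.33). *Cxcl5* (chr5:90759360-90761624), a chemokine that draws neutrophils, stood at 20.7, 0.576 and 23.7 CPM in KP, 181, 31.4 and 38.2 in KP_PPARaDN, 16.9, 42.9 and 20.6 in KPG1 and 1.47, 6.50 and 5.79 in KPG1_PPARaDN. KP replicate 2 was far below the other KP tumors and KP_PPARaDN replicate 1 far above its group, and the difference of differences was -5.03 ± 1.51 (edgeR adjusted p = 0.34). *Ptges*, the inducible prostaglandin E synthase, stood at 221, 41.8 and 137 CPM in KP, 236, 285 and 406 in KP_PPARaDN, 241, 431 and 212 in KPG1 and 60.2, 84.0 and 167 in KPG1_PPARaDN. Its difference was -2.72 ± 0.78, with KP replicate 1 at 221 CPM just below the lowest KP_PPARaDN tumor at 236.

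*Ier3*, an immediate early gene induced by NF-κB and stress, stood at 84.4, 28.1 and 69.7 CPM in KP, 169, 115 and 174 in KP_PPARaDN, 54.5, 75.6 and 70.1 in KPG1 and 43.0, 27.2 and 53.0 in KPG1_PPARaDN. It was highest in KP_PPARaDN, where all 3 tumors exceeded the other 9. *Tgm1*, a transglutaminase of squamous epithelia, stood at 41.1, 24.4 and 34.3 CPM in KP, 65.2, 54.8 and 73.8 in KP_PPARaDN, 78.1, 48.5 and 56.9 in KPG1 and 12.4, 24.1 and 42.4 in KPG1_PPARaDN. Its differences were 0.96 ± 0.38 in KP and -1.22 ± 0.38 in KPG1. *Hsd17b14*, a hydroxysteroid dehydrogenase, stood at 1.61, 0.910 and 1.71 CPM in KP, 13.9, 5.29 and 3.38 in KP_PPARaDN, 3.64, 7.23 and 3.6 in KPG1 and 2.08, 2.24 and 2.86 in KPG1_PPARaDN. Control and blocked tumors did not overlap in either genotype, by the choice of the gene. *Gbp9*, a guanylate-binding protein of the interferon-γ response, had a difference of differences of -2.44 ± 0.68, *Ccdc88b* of -2.78 ± 0.70, *Ccdc19* of -2.19 ± 0.56 and *Rilpl2* of -1.89 ± 0.42. Of the 20 genes named in both directions, 9 overlap another gene in the GENCODE annotation of mm10, and reads of such pairs may be shared.

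**Figure D2:**
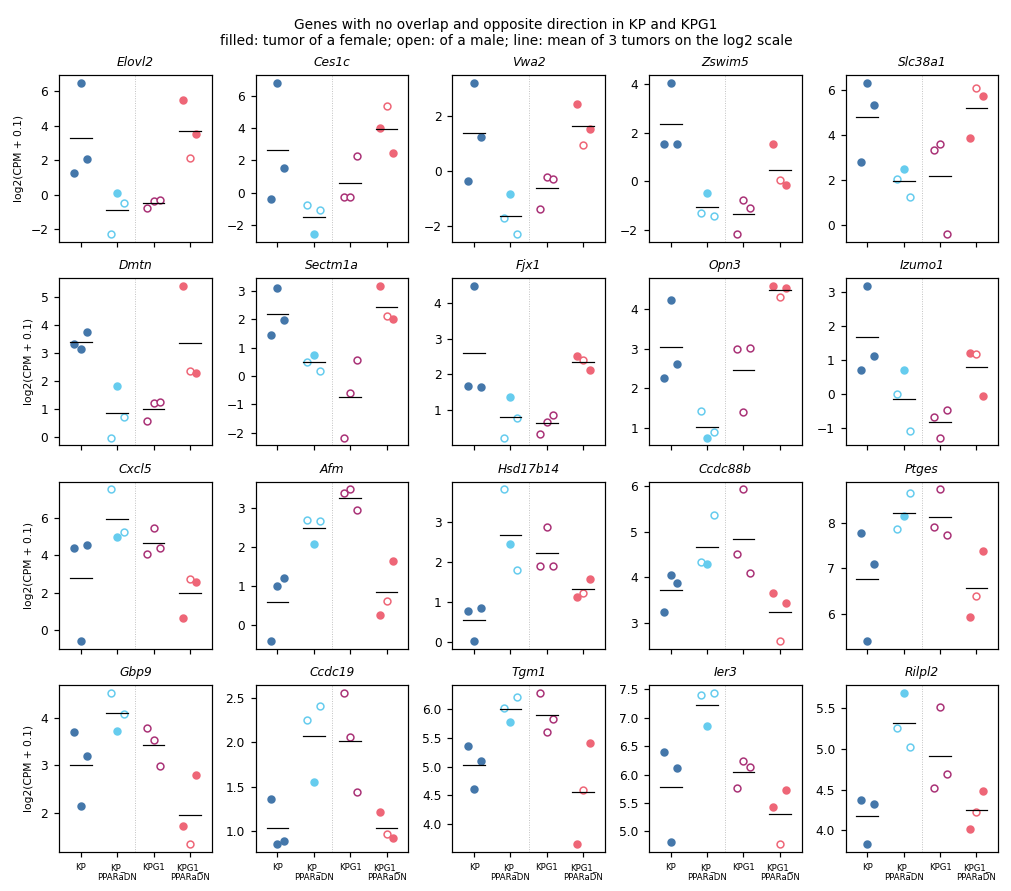
Values of the 20 named genes in each tumor on a log2(CPM + 0.1) scale (vertical axes), by group (horizontal axes), with filled points for tumors of females, open points for males and a line at the mean of 3 tumors. In the upper 2 rows KP_PPARaDN lies below KP and KPG1_PPARaDN above KPG1, and in the lower 2 rows the reverse holds, by the choice of the genes.

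KP replicate 2 stood apart from the other KP tumors and took part in most of these patterns. Its mean correlation with its own group was 0.914, against 0.926 to 0.958 in the other 11 tumors. It was the highest KP tumor in 77 of the 100 genes of the first direction, against 38.8% of all genes tested, and the lowest in 38 of the 63 of the second, against 35.8%. Among the 20 named genes it was the highest of KP in 9 of 10 and the lowest in 8 of 10. Without it, all 20 kept the same sign and an unadjusted p under 0.05, which their choice in these same tumors largely fixes. The genes with an unadjusted p under 0.05 then numbered 710 higher and 532 lower. *Elovl2* then had a difference of differences of 7.49 and *Ces1c* of 5.88. Other tumors stood out as well. KPG1_PPARaDN replicate 1 was the highest of its group in 57 of the 100 genes (36.9% of all genes) and the lowest in 42 of the 63 (38.7%). KPG1_PPARaDN replicate 3 was the highest in 40 of the 63 (31.4%). KPG1 replicate 2 was the lowest of its group in 52 of the 100 (31.6%) and the highest in 36 of the 63 (33.4%).

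The promoters of *Afm*, *Fabp1*, *Ldha* and *Ifit3b* are shown because each gene is described here and holds a motif that was searched. They are the 250 bases before the RefSeq start site on GRCm38.p6, all on the plus strand, with matches in capitals, and motifs were searched on both strands in the window from 250 bases before to 50 after the start of 27025 genes. *Afm* (chr5:90518699-90518948) holds the nuclear receptor hexamer AGGTCA at -44, which 16.04% of promoters hold on either strand. *Fabp1* (chr6:71199629-71199878) holds, on the minus strand at -67, the direct repeat of AGGNCA with a spacing of 1 base, which 0.38% hold. *Ldha* (chr7:46845554-46845803) holds 5 matches to ACGTG, the core of the hypoxia response element, which 19.67% hold. In that promoter 2 pairs of matches overlap as the palindrome shown in capitals, and the E-box of other factors is the same palindrome. *Ifit3b* (chr19:34607707-34607956) holds 2 matches to the core of interferon-stimulated elements, TTTC, any 2 bases and TTTC again, which 3.49% hold.
Afm: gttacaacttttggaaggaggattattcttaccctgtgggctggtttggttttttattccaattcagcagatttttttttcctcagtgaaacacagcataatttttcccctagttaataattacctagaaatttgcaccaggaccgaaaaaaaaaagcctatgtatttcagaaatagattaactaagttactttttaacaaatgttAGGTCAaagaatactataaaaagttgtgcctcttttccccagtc
Fabp1: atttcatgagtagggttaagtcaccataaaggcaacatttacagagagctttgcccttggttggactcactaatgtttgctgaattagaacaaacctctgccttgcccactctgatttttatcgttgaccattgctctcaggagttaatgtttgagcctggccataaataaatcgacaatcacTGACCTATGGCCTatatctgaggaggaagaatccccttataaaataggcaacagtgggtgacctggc
Ldha: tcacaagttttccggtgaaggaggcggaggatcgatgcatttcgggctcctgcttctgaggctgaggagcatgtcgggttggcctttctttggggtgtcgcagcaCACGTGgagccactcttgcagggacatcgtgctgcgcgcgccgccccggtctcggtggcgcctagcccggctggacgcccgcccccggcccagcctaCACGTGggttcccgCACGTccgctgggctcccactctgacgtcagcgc
Ifit3b: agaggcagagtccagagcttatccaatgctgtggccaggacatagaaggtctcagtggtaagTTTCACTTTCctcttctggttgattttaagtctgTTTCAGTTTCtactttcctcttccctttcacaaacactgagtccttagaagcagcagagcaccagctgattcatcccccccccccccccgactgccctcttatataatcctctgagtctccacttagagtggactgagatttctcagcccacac
Shares in the lists named for these motifs are descriptions, since members of such lists are partly defined by such elements. ACGTG was in 9 of 19 promoters of glycolysis genes (47.37%) and 10 of 17 of hypoxia genes (58.82%), and the interferon core in 16 of 27 of interferon genes (59.26%). AGGTCA was in 9 of 30 promoters of PPARα targets (30.0%) and the direct repeat in 1 of them. Among the 100 genes of the first direction, 70 matched a promoter and 9 held AGGTCA (12.86%), and among the 63 of the second, 35 matched and 6 held it (17.14%). A match describes the letters and shows no binding.

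Genes of glycolysis and lactate export had a median above 0 with the block in KP and below 0 in KPG1. All 19 list members were tested, 17 had a KP difference above 0 and 7 a KPG1 difference above 0, and 10 had opposite signs (53.2% of all genes did), all of them higher in KP. The median was 0.64 in KP and -0.20 in KPG1, and the median difference of differences -0.79, against 0.03 over all genes tested. None had an adjusted p under 0.05, and 6 had an unadjusted p under 0.05, all lower (4.94% of all genes). In the KP arm 7 of the 19 had an unadjusted p under 0.05, all higher, and in the KPG1 arm 0 (11.4% and 10.8% of all genes in either direction). Their summed level was 4252 to 5013 CPM in KP and 5162 to 9270 in KP_PPARaDN, without overlap. It was 5289 to 7852 CPM in KPG1 and 5330 to 6038 in KPG1_PPARaDN, with overlap. *Ldha*, which turns pyruvate into lactate, stood at 760.4, 673 and 1002 CPM in KP, 1479.8, 1382 and 943 in KP_PPARaDN, 1390.1, 1817 and 1154 in KPG1 and 1023, 964 and 1017 in KPG1_PPARaDN. KP_PPARaDN overlapped KP by 1 tumor, all KPG1_PPARaDN tumors were below KPG1, and the difference of differences was -1.18 ± 0.36. *Hk1*, a hexokinase that commits glucose to glycolysis, stood at 119, 34.4 and 106 CPM in KP, 205, 121 and 159 in KP_PPARaDN, 107, 145 and 134 in KPG1 and 80.6, 59.6 and 125 in KPG1_PPARaDN, with a difference of differences of -1.45 ± 0.58. *Gapdh* and *Pgam1*, with -3.50 ± 1.23 and -1.67 ± 0.62, have near-identical pseudogenes, and their counts are uncertain.

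*Slc2a1* had the same order of the arms. All 3 KP_PPARaDN tumors exceeded all 3 KP tumors, with a KP difference of 1.48 ± 0.36, while KPG1 and KPG1_PPARaDN overlapped with a difference of -0.03 ± 0.36. The difference of differences was -1.51 ± 0.50, and 3 other annotated genes overlap it. *Slc2a3*, which encodes Glut3, had a difference of 1.44 ± 1.41, with tumors of all 4 groups overlapping. Of 10 glucose transporter genes tested, *Slc2a1* alone had an unadjusted p under 0.05 (10%, against 11.8% of all genes). The list median was -0.08, 1.00 without KP_PPARaDN replicate 3 and -0.78 without KPG1_PPARaDN replicate 1. In the list of hypoxia targets, 15 of 23 genes had opposite signs (53.2% of all genes did), 13 of them higher in KP. The medians were 0.49 in KP and -0.14 in KPG1. *Car9*, a carbonic anhydrase induced by HIF, stood at 11.2, 1.15 and 2.40 CPM in KP, 10.8, 6.00 and 44.2 in KP_PPARaDN, 9.2, 14.0 and 2.78 in KPG1 and 0.682, 5.73 and 3.48 in KPG1_PPARaDN. Groups overlapped in both genotypes. *Mxi1*, a MYC antagonist, and *Car9* were the 2 members with an unadjusted p under 0.05 (8.7%, against 11.8% of all genes). Their differences were -1.42 ± 0.57 and -3.43 ± 1.45.

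Genes of the NRF2 response, which counters oxidants through glutathione and NADPH, showed the same order of the arms. All 24 were tested, 21 had a KP difference and 5 a KPG1 difference above 0, and 16 had opposite signs, all higher in KP. The medians were 0.45 in KP and -0.28 in KPG1, and the median difference of differences was -0.67. An unadjusted p under 0.05 was found for 8, all lower (4.94% of all genes). *Nqo1*, a quinone reductase, stood at 2.36, 1.94 and 2.09 CPM in KP, 6.61, 0.484 and 8.88 in KP_PPARaDN, 4.04, 15.5 and 6.01 in KPG1 and 1.98, 1.15 and 2.40 in KPG1_PPARaDN. KP_PPARaDN replicate 2, the female of its group, was the lowest of all 12 tumors. *Slc7a11*, the cystine importer, stood at 5.65, 6.52 and 8.25 CPM in KP, 10.8, 4.23 and 33.9 in KP_PPARaDN, 21.7, 37.2 and 16.1 in KPG1 and 5.25, 5.57 and 14.8 in KPG1_PPARaDN, with all 3 KPG1_PPARaDN tumors below KPG1 and overlap in KP. *Gsta1*, a glutathione S-transferase, stood at 0.0685, 0.212 and 0.0696 CPM in KP, 1.30, 5.04 and 2.11 in KP_PPARaDN, 0.320, 0.413 and 0.132 in KPG1 and 0.239, 0.992 and 0.770 in KPG1_PPARaDN. Its fitted differences were above 0 in both genotypes, at 4.52 ± 0.81 and 1.20 ± 0.72, with a difference of differences of -3.32 ± 1.06. With sex as a covariate the difference was -0.87 for *Nqo1* and -1.49 for *Slc7a11*.

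Interferon and antigen presentation genes had lower medians with the block in KPG1 than in KP. Of 38 interferon response genes, 17 had a KP difference above 0 and 8 a KPG1 difference above 0, and the medians were -0.11 and -0.57. The median difference of differences was -0.62, and -0.36 without KP_PPARaDN replicate 3. An unadjusted p under 0.05 in the difference of differences was found for 2 higher and 5 lower (6.87% and 4.94% of all genes). *Ifit3b*, an interferon-induced member of the IFIT family, stood at 0.650, 0.758 and 1.36 CPM in KP, 0.891, 2.91 and 2.34 in KP_PPARaDN, 1.96, 1.24 and 3.70 in KPG1 and 0.307, 0.576 and 0.646 in KPG1_PPARaDN, with a difference of -3.31 ± 0.83. *Zbp1*, a sensor of Z-form nucleic acids, stood at 4.59, 1.85 and 2.85 CPM in KP, 2.06, 3.78 and 4.15 in KP_PPARaDN, 2.52, 4.20 and 1.72 in KPG1 and 0.648, 0.480 and 0.554 in KPG1_PPARaDN. In KP its groups overlapped, and all 3 KPG1_PPARaDN tumors lay below the other 9. *Cmpk2* and *Rsad2*, which neighbor each other in the genome and are both induced by interferon, were the 2 members above 0 with an unadjusted p under 0.05, at 1.34 and 2.26. In all, 8 of the 38 had a value above 0 and 30 below.

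Of 20 genes of MHC class I presentation, 19 had a difference of differences below 0, with medians of -0.27 in KP and -1.48 in KPG1. The median difference of differences was -0.74, and leaving out 1 tumor gave -1.79 without KP replicate 1, -0.38 without KP replicate 2, -0.33 without KPG1 replicate 2, -1.17 without KPG1 replicate 3 and -0.44 without KPG1_PPARaDN replicate 1. In the KPG1 arm 11 of the 20 had an unadjusted p under 0.05, all lower, and in the KP arm 0, against 10.8% and 11.4% of all genes in the same arms in either direction. *Tapbp*, which encodes tapasin, was the 1 member with an unadjusted p under 0.05 for the difference of differences (5%, against 11.8% of all genes). It stood at 123, 81.2 and 112 CPM in KP, 109.9, 109 and 161 in KP_PPARaDN, 112, 138 and 97.7 in KPG1 and 37.3, 66.4 and 82.0 in KPG1_PPARaDN. *Tap2*, a subunit of the peptide transporter of the endoplasmic reticulum, stood at 75.5, 22.2 and 38.7 CPM in KP, 30.1, 36.0 and 61.6 in KP_PPARaDN, 56.7, 80.8 and 26.6 in KPG1 and 9.24, 20.1 and 21.7 in KPG1_PPARaDN. All 7 MHC class II genes had a value below 0, with a median of -1.04, and 0 of them passed an unadjusted p of 0.05. With sex as a covariate that median was 0.12, and it was -0.46 without KP_PPARaDN replicate 3 and -0.68 without KPG1_PPARaDN replicate 1.

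PPARα targets did not share a direction. Of 49 list members 42 were tested, 27 had opposite signs, 15 of them higher and 12 lower in KP, and the median difference of differences was -0.05. Their summed level was 5487 to 8007 CPM in KP, 4504 to 8721 in KP_PPARaDN, 7110 to 7728 in KPG1 and 3666 to 5407 in KPG1_PPARaDN. An unadjusted p under 0.05 was found for 3 higher and 5 lower (6.87% and 4.94% of all genes). Those 3 above 0 were *Lpl*, *Fabp1* and *Pex11a*. *Lpl*, the lipase that frees fatty acids from lipoproteins, stood at 22.2, 15.3 and 9.33 CPM in KP, 2.54, 7.23 and 10 in KP_PPARaDN, 7.16, 3.65 and 15.1 in KPG1 and 78.1, 16 and 40.2 in KPG1_PPARaDN. KPG1_PPARaDN was above KPG1 in all 3 tumors, KP_PPARaDN overlapped with KP, and the difference was 3.61 ± 0.96. *Fabp1*, the fatty acid-binding protein of liver and gut, stood at 2.94, 1.61 and 0.452 CPM in KP, 0.206, 0.775 and 0.167 in KP_PPARaDN, 0.0800, 0.103 and 1.85 in KPG1 and 10.6, 1.28 and 21.2 in KPG1_PPARaDN, with overlap in both genotypes and a difference of 6.11 ± 1.81. *Pex11a*, which divides peroxisomes, stood at 34.5, 76.3 and 32.0 CPM in KP, 13.3, 11.9 and 14.8 in KP_PPARaDN, 45.6, 34.6 and 56.6 in KPG1 and 29.6, 37.4 and 24.1 in KPG1_PPARaDN. Its fitted difference was below 0 in both genotypes, at -1.83 ± 0.34 and -0.59 ± 0.33, with no overlap in KP.

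The 5 targets below 0 with an unadjusted p under 0.05, of 21 below 0 in all, were *Cpt1a*, *Angptl4*, *Fads1*, *Txnip* and *Ehhadh*. *Cpt1a*, which admits fatty acids to mitochondria, stood at 109, 109.8 and 118 CPM in KP, 146, 86.9 and 217 in KP_PPARaDN, 191, 259 and 154 in KPG1 and 107, 104 and 157 in KPG1_PPARaDN. Its differences were 0.42 ± 0.31 in KP and -0.71 ± 0.31 in KPG1, with overlap in both. *Angptl4*, a secreted inhibitor of *Lpl*, stood at 15.3, 5.12 and 30.3 CPM in KP, 45.2, 50.0 and 52.8 in KP_PPARaDN, 51.5, 26.2 and 20 in KPG1 and 27.4, 21.3 and 33.2 in KPG1_PPARaDN, with no overlap in KP. Its difference of differences was -1.80 ± 0.74. *Fads1*, a fatty acid desaturase, had -1.95 ± 0.58, and *Txnip* and *Ehhadh* had -1.23 and -0.78. *Pdk4*, the kinase that closes pyruvate dehydrogenase and a textbook target of PPARα, stood at 64.0, 11.8 and 15.3 CPM in KP, 8.43, 3.91 and 18.8 in KP_PPARaDN, 21.8, 0.929 and 1.02 in KPG1 and 49.9, 8.48 and 13.8 in KPG1_PPARaDN. Its difference of 3.16 ± 1.68 was within 2 SE of 0, and groups overlapped in both genotypes.

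Lists of fatty acid breakdown, peroxisomes, lipid synthesis and respiration had median differences of differences near 0. The median difference of differences was -0.18 over 32 genes of fatty acid degradation, -0.02 over 47 of peroxisomes, 0.03 over 21 of fatty acid synthesis, -0.20 over 28 of bile acid and cholesterol synthesis and 0.00 over 40 of the respiratory chain. The summed level of fatty acid degradation genes was 3702 to 4366 CPM in KPG1 and 2919 to 3419 in KPG1_PPARaDN, with overlap in KP. For peroxisomes it was 3782 to 5100 and 3534 to 3753, also with overlap in KP. Sums of the remaining lists in this paragraph's first sentence overlapped in both genotypes. Single members lay further from 0. *Mlxipl*, which encodes the glucose-sensing factor ChREBP, stood at 1.88, 18.7 and 2.54 CPM in KP, 0.411, 0.484 and 0.502 in KP_PPARaDN, 2.52, 1.20 and 0.958 in KPG1 and 1.81, 3.07 and 4.37 in KPG1_PPARaDN, with no overlap in KP and a difference of 5.02 ± 1.16. *Acsl5*, an acyl-CoA synthetase, had -1.55 ± 0.58, and *Prdx5*, an antioxidant enzyme of mitochondria and peroxisomes, -1.58 ± 0.50. The median was -0.06 over 37 cell cycle genes, 22 of which had opposite signs, and -0.10 over 25 stress response genes, 11 of which had opposite signs, all higher in KP. With sex as a covariate the stress response median was -0.51.

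Markers of alveolar type 1 cells, the flat cells of gas exchange, had opposite signs in 15 of 15 genes tested, 13 of them higher with the block in KP and lower in KPG1. The medians were 0.60 and -0.28, the median difference of differences was -1.13, and without KP replicate 2 it was -0.65. *Cav2*, a caveolin, stood at 83.9, 64.4 and 114 CPM in KP, 171, 143 and 225 in KP_PPARaDN, 159, 152 and 88.6 in KPG1 and 90.3, 83.5 and 106 in KPG1_PPARaDN. KP_PPARaDN was above KP in all 3 tumors, KPG1_PPARaDN overlapped with KPG1, and the difference was -1.56 ± 0.39. *Emp2*, an epithelial membrane protein, had -1.32 ± 0.54 and *Igfbp2*, an insulin-like growth factor binding protein, 1.46 ± 0.57. The summed level of the list was 1086 to 6155 CPM in KP, 5537 to 8283 in KP_PPARaDN, 4072 to 6176 in KPG1 and 3312 to 4321 in KPG1_PPARaDN, and KP replicate 2 had the lowest sum of the 12 tumors. In bulk samples, fewer cells of a type and less RNA per cell cannot be told apart.

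Airway and gut markers held large single values. *Tff3*, a trefoil factor of mucous cells, stood at 0.205, 108 and 11.1 CPM in KP, 0, 0 and 0.368 in KP_PPARaDN, 0.280, 0 and 0 in KPG1 and 53.3, 137 and 0.0923 in KPG1_PPARaDN. It was near 0 in KP_PPARaDN and KPG1, and within KP and KPG1_PPARaDN its tumors spanned more than 100-fold. *Bpifa1*, a secreted airway protein, stood at 3.32, 2022 and 184 CPM in KP, 3.02, 26.3 and 1.00 in KP_PPARaDN, 8.60, 4.89 and 2.78 in KPG1 and 26.6, 345 and 69.2 in KPG1_PPARaDN. Here too the KP mean rests on replicate 2. *Apoa1*, the main apolipoprotein of HDL, stood at 41.0, 128 and 16 CPM in KP, 35.7, 27.0 and 7.94 in KP_PPARaDN, 5.04, 22.2 and 10.2 in KPG1 and 50.3, 84.4 and 61.1 in KPG1_PPARaDN, with no overlap in KPG1 and a difference of 3.78 ± 1.08. Of 25 gastric and gut genes tested, 5 were higher and 2 lower at an unadjusted p under 0.05, and of 15 club and ciliated genes 2 and 1 (6.87% and 4.94% of all genes). The lower ones included *Avil* of the gut list, at -1.51 ± 0.56, and *Aldh1a1* of the club and ciliated list, at -2.52 ± 0.73. In all, 9 gut genes lay above 0 and 16 below, and 9 club and ciliated genes above and 6 below. The median of the club and ciliated list was 0.67, -0.50 without KPG1_PPARaDN replicate 1 and 1.29 without KP_PPARaDN replicate 3, and with sex as a covariate it was -0.30. Alveolar type 2 markers had a median of -0.88, which was 0.095 with sex as a covariate, -0.067 without KP_PPARaDN replicate 3 and -0.50 without KPG1_PPARaDN replicate 1. Of its 17 genes, 4 lay above 0 and 13 below, and 1 was higher and 1 lower at an unadjusted p under 0.05 (6.87% and 4.94% of all genes). The 1 higher was *Nkx2-1*, at 1.08 ± 0.43. The 1 lower was *Chil1*, with -3.19 ± 1.13, at 2184, 512 and 2721 CPM in KP, 1457, 687 and 2552 in KP_PPARaDN, 5446, 5946 and 2703 in KPG1 and 102, 306 and 931 in KPG1_PPARaDN. *Sftpc*, *Sftpa1* and *Napsa* had -0.09, -0.15 and 0.05.

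Marker genes of other cell types also had medians away from 0, and their part in the results above was not tested. All 16 endothelial genes tested had a difference of differences below 0, 13 had opposite signs, and 0 had an unadjusted p under 0.05. The median was -0.80, -0.51 without KP replicate 2 and 0.21 without KP_PPARaDN replicate 3. Their summed level was 374 to 775 CPM in KP, 262 to 1351 in KP_PPARaDN, 378 to 854 in KPG1 and 319 to 484 in KPG1_PPARaDN. *Pecam1* was present in all 12 tumors, at 25.8 CPM or more. Of 20 fibroblast and collagen genes, 2 were higher and 2 lower at an unadjusted p under 0.05 (6.87% and 4.94% of all genes). The 2 higher were *Inmt*, at 3.39 ± 1.19, and *Mfap4*, at 2.41 ± 0.90, which did not exceed 0.970 CPM in any tumor. The 2 lower were *Col1a2*, at -2.32 ± 0.86, and *Col1a1*, at -1.26 ± 0.53. In all, 6 of the 20 lay above 0 and 14 below. The summed level of that list was 1179 to 2898 CPM in KP, 2185 to 3574 in KP_PPARaDN, 2488 to 2914 in KPG1 and 1623 to 2414 in KPG1_PPARaDN. Leukocyte genes summed to 99.8 to 333 CPM in KP, 198 to 277 in KP_PPARaDN, 129 to 202 in KPG1 and 84.6 to 155 in KPG1_PPARaDN, with 0 of 16 at an unadjusted p under 0.05. Mesothelial genes summed to 166 to 460 CPM in KP, 741 to 991 in KP_PPARaDN, 210 to 554 in KPG1 and 390 to 529 in KPG1_PPARaDN. Most of each sum was the keratin *Krt19*, at 162 to 416, 494 to 695, 194 to 459 and 325 to 494 CPM in the same groups. Its difference of differences, -0.51 ± 0.55, is the median of the list, so that neither value describes mesothelial cells alone. *Msln*, which some tumors express too, had -3.85 ± 1.45 and *Upk3b* did not exceed 2.39 CPM. The median difference of differences was -0.76 for fibroblast, 0.16 for leukocyte, -0.51 for mesothelial and -0.38 for gastric and gut genes, the last with medians of 0.54 in KP and 0.64 in KPG1. With sex as a covariate the mesothelial median was -2.97 and the leukocyte median 1.08. Without KPG1_PPARaDN replicate 2 the leukocyte median was -0.53, without KP replicate 1 it was -0.14, and without KP_PPARaDN replicate 3 it was 0.49, while the mesothelial median was -0.049 without KPG1 replicate 2. Of 29 mesenchymal transition genes, 0 had an unadjusted p under 0.05 and the median was -0.51, with -0.31 without KP replicate 2 and -0.91 without KP replicate 3. Of 7 erythroid genes tested, 2 were higher at an unadjusted p under 0.05 (6.87% of all genes). The median of the 7 genes was -0.46, which was above 0 without any 1 of 7 tumors, KP replicate 2 among them at 0.45.

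**Figure D3:**
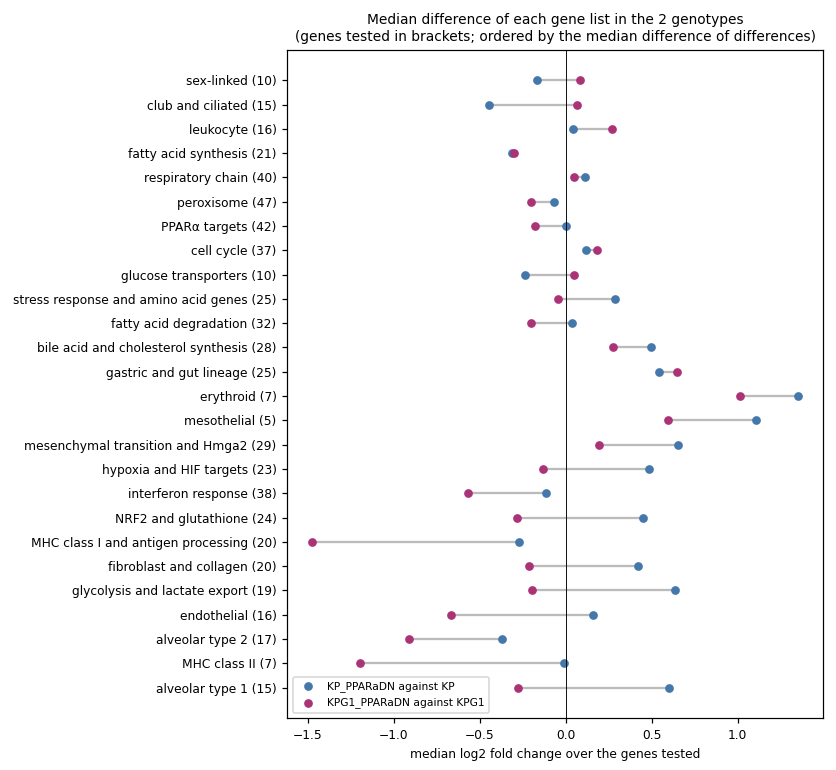
Median log2 fold change (horizontal axis) of each of 26 gene lists (vertical axis) with the PPARα block in KP (blue) and in KPG1 (purple). The lists of glycolysis, hypoxia, NRF2, alveolar type 1, endothelial and fibroblast genes lie above 0 in KP and below 0 in KPG1. So do those of stress response (0.28 and -0.04), fatty acid degradation (0.04 and -0.20) and PPARα target genes (0.002 and -0.18), with at least 1 median close to 0. Those of PPARα targets and peroxisomes lie at -0.18 and -0.20 in KPG1 and near 0 in KP.

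**Figure D4:**
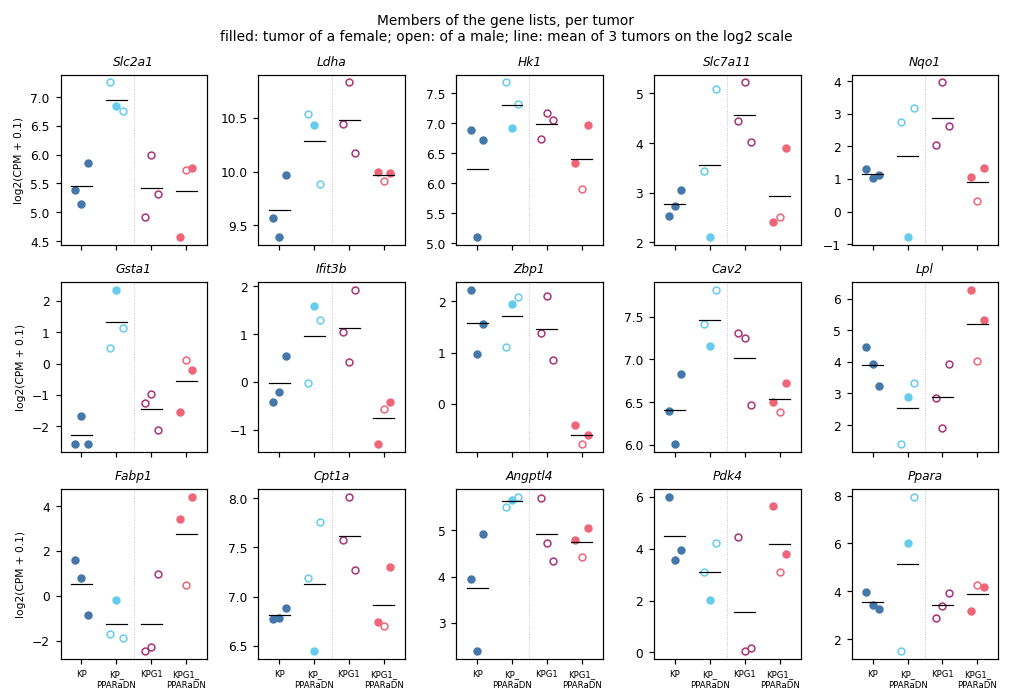
Values of 15 list members in each tumor on a log2(CPM + 0.1) scale (vertical axes), by group (horizontal axes), with filled points for tumors of females, open points for males and a line at the mean of 3 tumors. *Slc2a1* separates KP_PPARaDN from the other 9 tumors and *Zbp1* separates KPG1_PPARaDN, while *Ppara* spreads over 2.71 to 246 CPM within KP_PPARaDN.

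Other genes went the same way in both genotypes. *Anpep*, an aminopeptidase of cell membranes, fell by 2.50 ± 0.26 in KP (edgeR adjusted p = 0.015), at 52.3, 77.1 and 46.1 CPM in KP, 8.36, 10.7 and 12.1 in KP_PPARaDN, 31.6, 23.4 and 31.9 in KPG1 and 11.7, 12.7 and 15.5 in KPG1_PPARaDN. In KPG1 all 3 tumors with the block also lay below their controls, with a difference of -1.12 ± 0.25 (edgeR adjusted p = 0.42), and the difference of differences was 1.37 ± 0.35. *Acsbg1*, an acyl-CoA synthetase of brain and steroidogenic tissue, stood at 0.719, 1.00 and 1.74 CPM in KP, 13.5, 21.9 and 25.9 in KP_PPARaDN, 0.360, 0.998 and 0.529 in KPG1 and 6.55, 19.8 and 8.10 in KPG1_PPARaDN. Its differences were 4.14 ± 0.58 and 4.18 ± 0.59, with a difference of 0.03 ± 0.66 between them. *Hba-a2*, an α-globin gene of red cells, had the smallest p of all genes for the difference of differences, at 26.2, 13.1 and 17.6 CPM in KP, 53.7, 75.1 and 34.4 in KP_PPARaDN, 0.240, 0.103 and 0.529 in KPG1 and 122, 29.1 and 37.1 in KPG1_PPARaDN. It rose by 7.72 ± 0.78 in KPG1 (edgeR adjusted p = 0.011), but its near-identical copy *Hba-a1* stood at 65.2, 68.7 and 126 CPM in the same KPG1 tumors, so that the count of *Hba-a2* alone is uncertain.

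Sex ran through the difference of differences. *Xist*, expressed from the inactive X chromosome of females, and *Ddx3y*, on the Y chromosome, followed the sex label in all 12 tumors. Chromosome X held 3.55% of the tested genes, 7.88% of the genes with an unadjusted p under 0.05 and a value above 0 (89 of 1129 with a position), and 1.24% of those below 0 (10 of 808). *Kdm6a*, an X-linked gene that escapes inactivation, was the 1 member of any list among the 163 genes, at 71.6, 136 and 118 CPM in KP, 58.2, 61.5 and 59.1 in KP_PPARaDN, 54.6, 60.5 and 47.0 in KPG1 and 142, 66.3 and 111 in KPG1_PPARaDN, with a difference of 1.84 ± 0.41 and of 1.11 with sex as a covariate. With sex as a covariate, 529 genes higher and 332 lower had an unadjusted p under 0.05, and 489 of the 1952 genes remained. Of the 154 genes without overlap and with an unadjusted p under 0.05, 76 remained and all 154 kept their sign. None of the 20 named genes lies on chromosome X, and 18 of them kept an unadjusted p under 0.05, the exceptions being *Cxcl5* and *Ccdc19*. These genes were chosen for their separation between groups, so that their count is a description. The fit with sex rests largely on the same 2 PPARaDN tumors as the comparison that follows, so that the 2 are not separate checks. The 8 tumors of the same sex as their controls are the 3 KP tumors with 1 KP_PPARaDN tumor of a female and the 3 KPG1 tumors with 1 KPG1_PPARaDN tumor of a male. They leave 1 tumor in each PPARaDN arm, and their values are given without a test. The list medians were -0.71 for glycolysis, -0.55 for NRF2, -0.49 for hypoxia and -1.28 for alveolar type 1 genes with sex as a covariate.

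**Figure D5:**
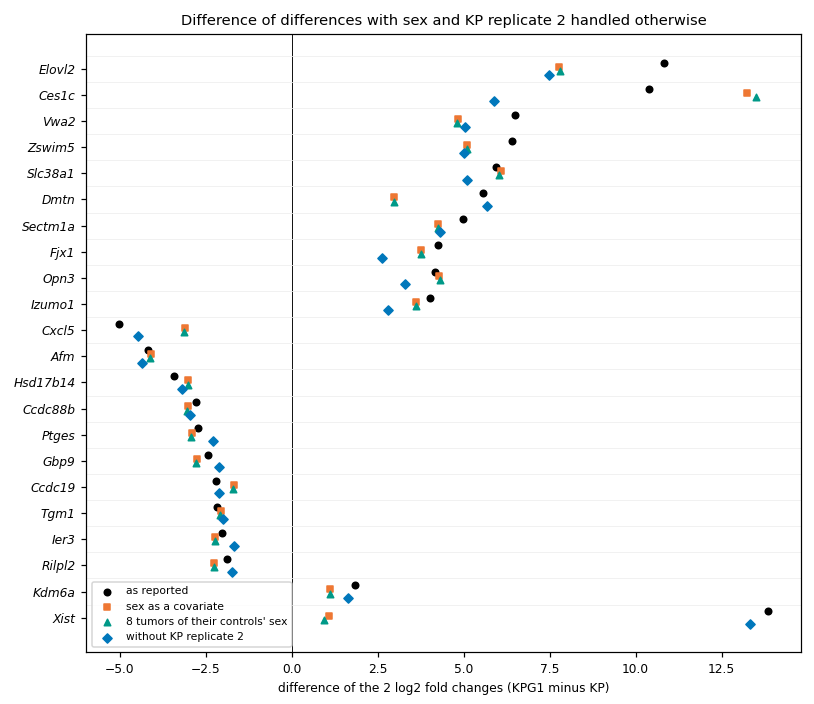
Difference of the 2 log2 fold changes, KPG1 minus KP (horizontal axis), for the 20 named genes, *Kdm6a* and *Xist* (vertical axis), as reported (circles), with sex as a covariate (squares), in the 8 tumors of their controls' sex (triangles) and without KP replicate 2 (diamonds). All 20 named genes keep their sign, which their choice in these tumors largely fixes, while *Xist* moves from 13.85 to 1.095 with sex as a covariate. Squares and triangles rest largely on the same 2 PPARaDN tumors.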

How the data were processed

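CD45-negative cells of 12 lung tumors, 3 per group, were sequenced. The authors deposited counts of reads per gene, after trimming by Cutadapt and alignment by HISAT2 (mm10). The submitters' processing notes name featureCounts 1.4.4. The annotation is not given in the sources used here. The files of 12 tumors equal the deposited combined count table. Their log2 table was not used. Columns that match no sample numbered 0. The sex, diet, replicate and mouse of each tumor come from the labels, the last as a label number taken for the animal. Total counts were 25263794 to 32654223 per tumor.

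Counts were tested with edgeR 4.0.16 (TMM, filterByExpr by group, glmQLFit, glmQLFTest; R 4.3.3) with 12 tumors in one fit of 4 group means and 8 residual degrees of freedom, with Benjamini-Hochberg adjustment over 16527 genes at 0.05. SE was obtained as the log2 fold change over the root of F. The biological coefficient of variation was 0.44. The fit was tested on simulated data in which 200 genes differed. The members, the 26 gene lists and the tests were chosen with earlier results of these data known. Named were up to 10 genes per direction with no overlap, opposite directions, an unadjusted p under 0.05 and a mean of at least 1 CPM, without predicted, pseudo- or sex-linked genes, by size of the difference, up to 4 members per list with the smallest p, and a few targets. Other members were named after their values were seen. Positions come from GENCODE and promoters from RefSeq (GRCm38.p6), which held 93 of 126 named genes. Some items are not reported here. DESeq2 1.42.0, limma 3.58.1 voom, other scalings and filters, sex, the replicate number, summing by mouse and leaving out each tumor were alternatives. The comparison of tumors of the same sex as their controls was added after seeing the data.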

Additional observations from a re-analysis of the deposited data

How the results depend on the processing

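No gene had an adjusted p under 0.05 under any alternative but DESeq2, which gave 286, of which 22 had a group with at most 3 reads and 63 were among the 163 genes without overlap. Counts at an unadjusted p under 0.05 were 529 higher and 332 lower with sex as a covariate, 461 and 309 in the 8 tumors of their controls' sex, where each PPARaDN arm is 1 tumor assumed to vary like the controls, and 463 and 450 at a mean of at least 20 CPM. Leaving out 1 tumor at a time gave 710 to 1455 higher and 485 to 1042 lower, with 710 and 532 without KP replicate 2 and 852 and 485 without KPG1_PPARaDN replicate 1. The genes without overlap in opposite directions depend on the number of tumors compared by construction, with 36 and 35 at a mean of at least 20 CPM, 558 and 352 after summing by mouse, 996 and 979 in the 8 tumors, and 112 to 371 and 79 to 234 when 1 tumor was left out.

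The list medians of glycolysis, NRF2, hypoxia and alveolar type 1 genes stayed below 0 in every alternative run. The cause of the moves that follow was not tested. The fit with sex and the 8 tumors rest largely on the same PPARaDN tumors, 1 per genotype, and are not separate checks. With sex as a covariate and in the 8 tumors, the median was 0.12 and 0.12 for MHC class II, -0.51 and -0.52 for stress response, 0.095 and 0.088 for alveolar type 2, -0.30 and -0.078 for club and ciliated, 1.08 and 1.24 for leukocyte, and -2.97 and -2.97 for mesothelial genes, and in the 8 tumors it was 0.64 for glucose transporters. At a mean of at least 20 CPM it was -0.39 for PPARα targets, -0.23 for fatty acid synthesis, -1.42 for leukocyte and -2.14 for mesothelial genes. It was 0.16 for PPARα targets with no filter, -0.33 for fatty acid degradation after summing by mouse, and 0.30 with voom for club and ciliated genes. Leaving out 1 tumor gave medians of -1.79 to -0.33 for MHC class I, -1.17 to -0.067 for alveolar type 2, -0.50 to 1.29 for club and ciliated, -1.18 to 0.21 for endothelial, -0.63 to 0.48 for erythroid, -0.33 to -0.061 for fatty acid degradation, -0.24 to 0.16 for fatty acid synthesis, -0.78 to 1.00 for glucose transporters, -0.53 to 0.49 for leukocyte and -0.38 to 0.077 for stress response genes. Endothelial genes were above 0 without KP_PPARaDN replicate 3.

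Of the named genes, those that changed sign had no unadjusted p under 0.05: *Acsbg1* (-0.089 with voom, -0.62 to 0.49 without 1 tumor), *Ciita* (0.091 with sex as a covariate, 0.083 in the 8 tumors), *H2-DMb1* (0.12 and 0.12), and, without 1 tumor, *Ptprc* (-0.25 to 1.79) and *S100a8* (-3.12 to 0.16). The replicate numbers do not pair tumors, since 2 of 18 correlations of same-numbered tumors exceeded 0.1. With the number as a block, 0 genes had an adjusted p under 0.05, 937 higher and 755 lower an unadjusted one, and the median of club and ciliated genes was 0.18. At these depths counting error matters for genes of few reads alone.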
